A study of Mus musculus with 6 samples.

Results

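The IL-1, IL-18 and IL-36 family of cytokines is described here by 10 of the 18437 genes in the deposited expression table, chosen by symbol. They are the agonist ligands Il1a, Il1b, Il36a, Il36g, Il18 and Il33, and the antagonists, decoys and receptor Il1rn, Il1r2, Il18bp and Il1rl1. The table held 8 of them under their current symbols. Il36a and Il36g were found under the older symbols Il1f6 and Il1f9, through the synonyms of a GRCm38.p6 gene table. The tumours grew from 4MOSC1 cells, a mouse oral squamous cell carcinoma line, injected into the tongue of C57BL/6 mice. In the 3 LIGHT tumours the injected cells were 4MOSC1-LIGHT cells, which overexpressed LIGHT, the cytokine encoded by Tnfsf14. In the 3 control tumours they were 4MOSC1-con cells, and strain, parental line and site of injection were shared by both groups. Whole tumours were sequenced, so host cells and tumour cells contributed to every value, and because no label ties a library to an animal or culture, the spread that the p-values rest on may be technical. How LIGHT was expressed in the injected cells, and whether they are 1 clone, is not stated in the labels.

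IL-1 alpha, IL-1 beta, IL-36 alpha, IL-36 gamma and IL-33 are alarm cytokines of barrier tissue that signal through receptor pairs sharing the coreceptor IL-1RAP and, inside the cell, through MyD88 and NF-kappaB. IL-18 uses its own receptor pair, is made as a precursor that inflammasome caspases cleave, and is best known for driving interferon gamma in T and NK cells. Each branch carries its own brake: the receptor antagonist IL-1Ra (Il1rn) and the decoy receptor IL-1R2 for IL-1, the soluble binding protein IL-18BP for IL-18, the antagonist IL-36Ra (Il36rn) for IL-36, and soluble ST2 (a product of Il1rl1) for IL-33.

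Values were TPM, transcript levels scaled for gene length and for the total of each library, and such values do not show how deeply a library was sequenced. The LIGHT libraries held 13183 to 13271 genes with at least 1 TPM, against 12713 to 12838 in the control libraries. Tnfsf14 stood at 26.2, 25.9 and 23.9 TPM in LIGHT libraries, against 0.66, 0.53 and 0.79 TPM in control libraries, which follows the labels. The keratinocyte gene Krt5 was abundant in all 6 libraries, at 4470.4 to 5319 TPM in LIGHT and 4151 to 5395 TPM in control tumours. LIGHT replicate 2 stood apart: it had the highest summed skeletal muscle and red blood cell markers of the 6 libraries (8490.0 and 2086 TPM) and the lowest summed neutrophil and basal keratinocyte markers (653.3 and 18250.0 TPM). The neutrophil sum was low there through S100a8 and S100a9 (105.2 and 253.4 TPM). Of the other neutrophil markers, Retnlg and Mmp9 were highest in that library (33.7 and 8.91 TPM) and Clec4d was lowest (9.16 TPM). Results that rest on LIGHT replicate 2 are given without it as well.

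Of the 10 members, Il18 and its soluble inhibitor Il18bp rose in LIGHT tumours, with group means 1.70 and 1.74 times those of control tumours. No member fell, and the 8 others did not pass the test. The test was limma on log2(TPM + 1) over the 13167 genes that reached 1 TPM in 3 libraries or more, with a Benjamini-Hochberg adjusted p under 0.05 as the threshold. All 10 members passed that filter. The 2 of 10 higher compare with 17.7% of all genes tested that were called higher in LIGHT, the 0 of 10 lower with 5.41% called lower, and the 2 of 10 called in either direction with 23.1%. At an unadjusted p under 0.05 the counts were again 2 higher and 0 lower, against 26.9% and 9.9% of all genes tested. The groups did not overlap for 2 of 10 members, against 41.2% of all genes tested. The family as a whole was thus called no more often than other genes, and the counts are not a result about its members. The median log2 fold change was 0.19 over the 10 members, 0.09 over the 6 agonists and 0.19 over the 4 others, against 0.09 over all genes tested. The all-gene median was -0.01 with TMM scaling and -0.04 with quantile normalization, and the share of calls that were higher was 76.6% as deposited, 50.9% with TMM and 43.6% with quantile normalization. Il18 and Il18bp were called higher under both scalings.

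**Figure D1:**
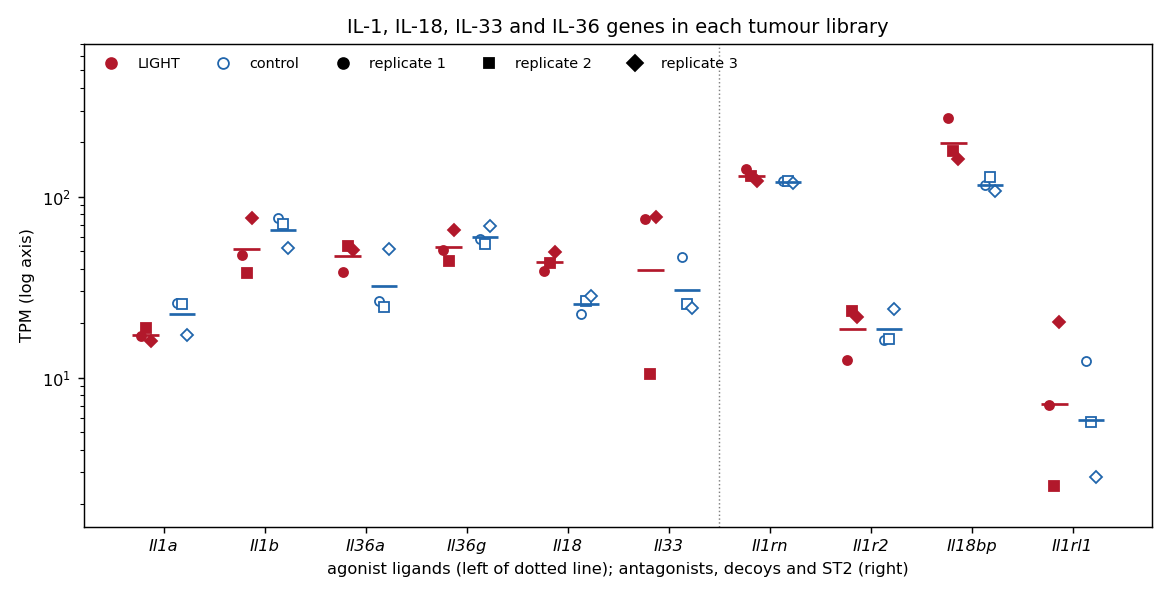
TPM (log axis) of the 10 members in each library, with LIGHT libraries left of control libraries; points are libraries and bars are geometric means (n = 3 per group). The LIGHT and control points are apart for Il18 and Il18bp and overlap for the other 8 members, and LIGHT replicate 2 is the low point of Il33 at 10.5 TPM.

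The order of levels differed between groups at the top. In LIGHT tumours Il18bp averaged 204.3 TPM and came first, above every library's value for the next gene, Il1rn (131.2 TPM). In control tumours Il1rn averaged 121.1 TPM and Il18bp 117.1 TPM, and their libraries overlapped. In LIGHT tumours Il33, Il1b, Il36g, Il36a and Il18 followed with means of 44.0 to 54.4 TPM, each overlapping its neighbour, and Il1r2, Il1a and Il1rl1 came last with means of 10.0 to 19.2 TPM, again overlapping their neighbours. In control tumours Il1b and Il36g (66.5 and 60.6 TPM) overlapped each other and stood above Il36a, Il33, Il18, Il1a and Il1r2 (18.9 to 34.2 TPM), a run of genes in which every neighbour overlapped the next. Il1rl1 was lowest in control tumours, at 6.96 TPM. Antagonists were thus the 2 most abundant members by TPM in both groups.

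Il18 lies on chromosome 9 (chr9:50554700-50581841, plus strand) and encodes the IL-18 precursor. Its level was 38.7, 43.4 and 49.8 TPM in LIGHT libraries, against 22.6, 26.6 and 28.2 TPM in control libraries. Every LIGHT library was above every control library, and 41.2% of all genes tested also had groups that did not overlap, in either direction. The mean was 44.0 ± 5.59 TPM in LIGHT and 25.8 ± 2.87 TPM in control tumours (SD, n = 3 each), and the log2 fold change was 0.74 (SE 0.12, 95% interval 0.46 to 1.03, limma adjusted p = 0.00673). Over all alternative settings the adjusted p lay between 0.00443 and 0.0453. In bulk tissue, more cells of a type and more RNA per cell cannot be told apart, here or in the results that follow. Il18 overlaps Tex12 and Bco2 on the opposite strand, and the labels do not say whether counting used the strand. Both of these genes were at 1.02 TPM or less in all 6 libraries.

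Il18bp lies on chromosome 7 (chr7:102015074-102018232, minus strand) and encodes the secreted protein that binds IL-18 and keeps it from its receptor. It stood at 271.6, 180.1 and 161.4 TPM in LIGHT libraries, against 116.0, 128.0 and 107.4 TPM in control libraries. The groups did not overlap, and LIGHT replicate 1 was well above the other LIGHT libraries. The mean was 204.3 ± 58.9 TPM in LIGHT and 117.1 ± 10.3 TPM in control tumours (SD, n = 3 each), with a log2 fold change of 0.76 (SE 0.18, 95% interval 0.34 to 1.19, limma adjusted p = 0.0239). Leaving out control replicate 1 or control replicate 3 ended the call (limma adjusted p = 0.0539 and 0.0781), as did the skeletal muscle markers as a covariate (0.105). Over all alternatives the log2 fold change lay between 0.54 and 0.95. Il18bp shares 80 bases with Numa1 on the opposite strand, and Numa1 was at 26.4 to 31.4 TPM in LIGHT and 24.2 to 25.3 TPM in control libraries.

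The promoters of the 2 genes that rose are shown because they could be set against each other and against those of family genes that were not called. They are RefSeq sequences of build GRCm38.p6, from 250 bases before to 50 bases after an annotated start, written 5′ to 3′ on the strand of the gene. Il18 covers chr9:50554450-50554749 (plus strand), Il18bp chr7:102018183-102018482 (minus strand), Il1a chr2:129309923-129310222 (minus strand), and Il1rn chr2:24336610-24336909 (plus strand, the first of its annotated starts). Capitals mark matches to any of 4 motifs searched on both strands: the kappaB motif, GAS (TTCNNNGAA), the ISRE core (GAAA, any 2 bases, GAAA) and AP-1 (TGANTCA).
Il18: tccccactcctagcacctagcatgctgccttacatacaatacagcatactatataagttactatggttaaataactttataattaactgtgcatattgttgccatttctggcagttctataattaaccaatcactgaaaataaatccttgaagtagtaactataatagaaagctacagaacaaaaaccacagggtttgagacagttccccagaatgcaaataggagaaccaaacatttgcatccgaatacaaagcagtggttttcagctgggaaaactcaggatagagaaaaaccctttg
Il18bp: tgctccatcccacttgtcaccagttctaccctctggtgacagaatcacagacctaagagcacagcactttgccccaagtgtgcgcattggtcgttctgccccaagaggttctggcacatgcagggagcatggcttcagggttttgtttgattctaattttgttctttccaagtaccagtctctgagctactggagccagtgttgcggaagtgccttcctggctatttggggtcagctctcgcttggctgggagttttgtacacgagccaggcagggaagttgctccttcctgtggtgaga
Il1a: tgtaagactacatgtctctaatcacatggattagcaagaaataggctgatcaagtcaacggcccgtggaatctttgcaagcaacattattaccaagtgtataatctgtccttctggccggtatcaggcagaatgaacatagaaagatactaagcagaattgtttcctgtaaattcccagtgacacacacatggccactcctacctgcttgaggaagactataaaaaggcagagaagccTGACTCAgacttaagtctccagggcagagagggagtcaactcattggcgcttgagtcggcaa
Il1rn: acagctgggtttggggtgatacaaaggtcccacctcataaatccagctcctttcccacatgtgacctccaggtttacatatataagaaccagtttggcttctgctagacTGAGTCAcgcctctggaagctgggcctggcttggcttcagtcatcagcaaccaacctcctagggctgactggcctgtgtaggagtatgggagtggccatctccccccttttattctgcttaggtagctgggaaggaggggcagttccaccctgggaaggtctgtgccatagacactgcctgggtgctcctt
The Il18 and Il18bp windows held none of the 4 motifs, which says only that these letters are not in those windows. The windows of Il1b, Il33 and Il1rl1, which were not called, and those of the later Il1rn starts held none either. The Il1a window held an AP-1 match (TGACTCA) with its first base at position -12 from the start, and the Il1rn window held one (TGAGTCA) at position -141. Among the other members, a GAS match stood at position -128 of Il36g (TTCCCAGAA) and at position -111 of one Il1r2 start (TTCAAGGAA), and no 2 matches overlapped. Among 32851 promoters of the same length, 4.51% held the kappaB motif, 8.3% GAS, 3.44% the ISRE core and 7.81% AP-1, and a match is a description of the letters, not a site in use. Promoters were given for 9 of the 10 members, all but Il36a.

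Although Il18 and Il18bp rose by like amounts, they did not move together within the LIGHT group. LIGHT replicate 1 had the highest Il18bp and the lowest Il18 of the LIGHT libraries, and LIGHT replicate 3 had the reverse. The Il18bp to Il18 ratio was therefore 7.02, 4.15 and 3.24 in LIGHT libraries, against 5.13, 4.81 and 3.81 in control libraries. The groups overlapped, and the geometric means were 4.55 in LIGHT and 4.54 in control tumours. This ratio, taken inside each library, does not depend on how the library was scaled.

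The genes whose pattern over the 6 libraries was most like that of each of the pair were different ones. Likeness was the largest gap between 2 genes in any library, after each gene's log2(TPM + 1) was centred on its own mean. For Il18bp the closest of 13166 genes were Mndal (largest gap 0.017), the guanylate-binding GTPase gene Gbp2 (0.044) and Sp140 (0.107). Mndal stood at 230.1, 154.2 and 138.5 TPM in LIGHT libraries, against 99.9, 110.3 and 90.7 TPM in control libraries, so its libraries ranked as those of Il18bp did. For Il18 the closest were Bscl2 (0.069), Pdzd2 (0.092) and Tnni3 (0.106). Bscl2 stood at 33.5 to 75.2 TPM over the 6 libraries, but Pdzd2 only at 1.82 to 4.41 TPM and Tnni3 at 0.82 to 2.47 TPM. At such low levels the added 1 TPM shrinks differences, so the likeness of Pdzd2 and Tnni3 to Il18 depends on it. A gap within 0.25 was found for 74 genes with Il18bp and for 224 genes with Il18, so the genes named are the nearest of many.

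**Figure D2:**
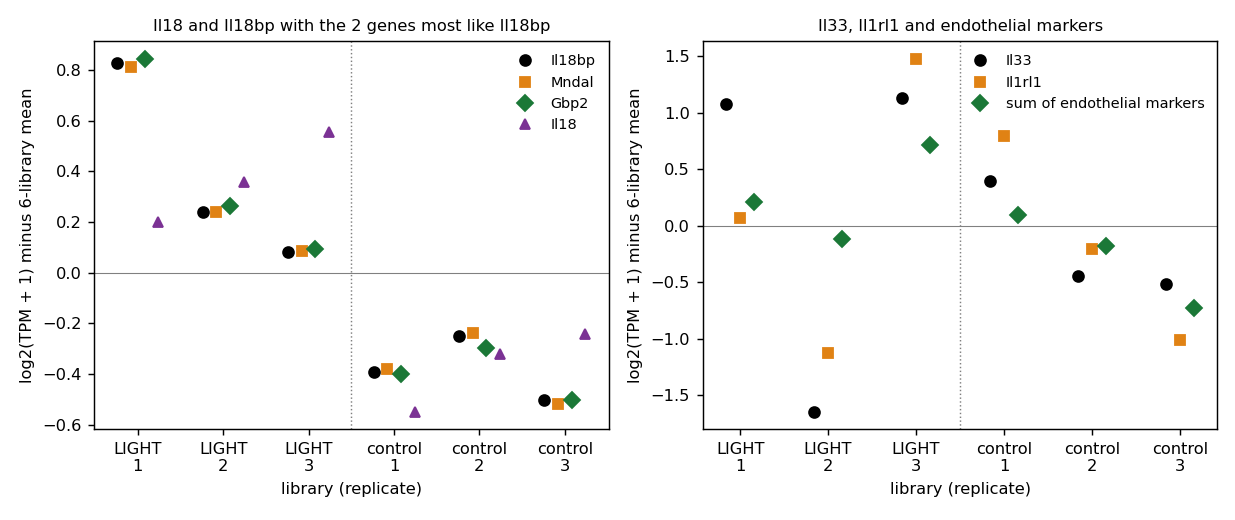
log2(TPM + 1) minus the 6-library mean (vertical axis) in each library (horizontal axis), with LIGHT libraries on the left; points are single libraries. On the left, Il18bp, Mndal and Gbp2 nearly coincide while Il18 is highest in LIGHT replicate 3; on the right, Il33 and Il1rl1 are both lowest in LIGHT replicate 2.

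Both chains of the IL-18 receptor were higher in LIGHT tumours, as Il18 was, but did not follow it within the LIGHT group. Il18r1 and Il18rap were highest in LIGHT replicate 1, the LIGHT library with the least Il18. Within the control group Il18, Il18r1 and Il18rap were all lowest in control replicate 1. Il18r1, the ligand-binding chain, stood at 17.7, 12.2 and 13.3 TPM in LIGHT libraries, against 4.18, 5.40 and 5.03 TPM in control libraries (log2 fold change 1.38, SE 0.15, limma adjusted p = 0.00206). Il18rap, the signalling chain, stood at 6.27, 5.58 and 5.49 TPM in LIGHT libraries, against 2.62, 3.80 and 3.56 TPM in control libraries (log2 fold change 0.66, limma adjusted p = 0.0138). In both genes all LIGHT libraries were above all control libraries. Il18r1 was called under every alternative run, and Il18rap lost its call with quantile normalization (adjusted p = 0.0538) and with the red blood cell markers as a covariate (0.0671). Il18rap also fell short of the alternative that asked for an absolute log2 fold change of at least 1.

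Interferon gamma, the cytokine that IL-18 is known to induce, was also higher. Ifng stood at 21.5, 14.4 and 11.5 TPM in LIGHT libraries, against 3.37, 8.47 and 4.46 TPM in control libraries (log2 fold change 1.42, SE 0.31, limma adjusted p = 0.017). Within the LIGHT group its order was the reverse of that of Il18, and within the control group both were lowest in control replicate 1. The Ifng call ended when control replicate 3 was left out (adjusted p = 0.0588) and with the red blood cell covariate (0.0853). Of the 14 genes listed as interferon gamma and genes it induces, 11 rose and 0 fell, against 17.7% and 5.41% of all genes tested, with a median log2 fold change of 0.94 against 0.09. The count of 11 became 6 when control replicate 3 was left out, 6 with the muscle covariate and 6 with the red blood cell covariate, each with 0 lower. At an absolute log2 fold change of at least 1 it was 6 as well. The 4 with the smallest p were the T-cell chemokine genes Cxcl9 (2.37) and Cxcl10 (2.01), the GTPase gene Gbp5 (1.68) and the MHC class II regulator Ciita (1.53), all log2 fold changes. Markers of immune cells moved with these genes: 11 of 12 T cell markers rose and 0 fell, and their summed level was 281.8 to 341.9 TPM in LIGHT against 75.4 to 182.2 TPM in control tumours. For macrophages and monocytes 7 of 12 rose and 0 fell, with sums of 1420.0 to 1908 TPM in LIGHT against 829.1 to 945.1 TPM in control tumours. No marker on either list was at 0 in all libraries, and the part of these cells in the IL-18 results was not tested.

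The genes that cleave and release the family's ligands were a further group. Of 18 listed, 17 were found and 13 tested, and 6 rose and 0 fell, against 17.7% and 5.41% of all genes tested, and their median log2 fold change was 0.48. The number higher became 1 with the skeletal muscle covariate, 3 with the red blood cell covariate and 0 at an absolute log2 fold change of at least 1. With TMM scaling or quantile normalization 1 gene was lower. Casp4, the caspase of the non-canonical inflammasome, stood at 78.1, 63.8 and 55.3 TPM in LIGHT libraries, against 32.2, 38.7 and 29.1 TPM in control libraries (log2 fold change 0.95, limma adjusted p = 0.00566). Gsdmd, the pore-forming gasdermin through which mature IL-1 beta and IL-18 leave the cell, stood at 73.0, 63.6 and 58.1 TPM in LIGHT libraries, against 43.5, 44.7 and 35.1 TPM in control libraries (log2 fold change 0.65, limma adjusted p = 0.0111). The groups did not overlap for either gene. The DNA sensor gene Aim2 (log2 fold change 0.64, limma adjusted p = 0.0136) and the protease gene Ctss (0.79, 0.0114) rose as well. With the skeletal muscle markers as a covariate the adjusted p of Gsdmd was 0.116, that of Ctss 0.171 and that of Aim2 0.0697. Aim2 also lost its call with quantile normalization (0.0598) and the red blood cell covariate (0.0747). Casp1, the caspase that cleaves IL-1 beta and IL-18, was looked at after its values were seen: it stood at 124.9 to 170.4 TPM in LIGHT and 100.7 to 121.9 TPM in control libraries, groups that did not overlap, with a log2 fold change of 0.35 (95% interval 0.04 to 0.66, limma adjusted p = 0.0961).

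The IL-1 agonists Il1a and Il1b, neighbours on chromosome 2 (chr2:129299609-129310186 and chr2:129364569-129371164, both on the minus strand), did not pass the test. Il1a, the cell-associated alarmin of keratinocytes, stood at 17.0, 18.9 and 15.9 TPM in LIGHT libraries, against 26.0, 25.4 and 17.3 TPM in control libraries. The groups overlapped only through control replicate 3, and the log2 fold change was -0.37 (SE 0.16, 95% interval -0.74 to 0.00, limma adjusted p = 0.14). Without that library Il1a was called lower, with a log2 fold change of -0.55 (adjusted p = 0.0283). Il1b, the form secreted mainly by myeloid cells, stood at 47.6, 37.8 and 76.0 TPM in LIGHT libraries, against 76.3, 71.2 and 52.0 TPM in control libraries. LIGHT replicate 3 was nearly as high as the highest control library, and the log2 fold change was -0.34 (95% interval -0.93 to 0.24, limma adjusted p = 0.365). The intervals of both genes reach to a drop about as large as the rise of Il18, so a missed test does not show that their levels were equal.

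The antagonist and the decoy of IL-1 did not pass the test either. Il1rn, which encodes the receptor antagonist (chr2:24336860-24351491, plus strand), stood at 141.9, 129.7 and 121.8 TPM in LIGHT libraries, against 122.2, 122.4 and 118.9 TPM in control libraries. It varied least of the members: the highest control library was 1.03 times the lowest, a spread that only 1.9% of genes tested undercut. Its log2 fold change was 0.11 (95% interval -0.08 to 0.30, limma adjusted p = 0.364), and gene-level TPM do not separate the secreted from the intracellular forms. Il1r2, the decoy receptor that binds IL-1 without signalling (chr1:40084692-40125230, plus strand), stood at 12.6, 23.3 and 21.8 TPM in LIGHT libraries, against 16.1, 16.4 and 24.0 TPM in control libraries. The groups overlapped, with LIGHT replicate 1 below all control libraries and control replicate 3 above all LIGHT libraries, and the log2 fold change was 0.00 (95% interval -0.56 to 0.57, limma adjusted p = 0.993).

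Set against the summed agonists, the antagonist ratio overlapped between groups. Il1rn over Il1a plus Il1b was 2.20, 2.28 and 1.33 in LIGHT libraries, against 1.19, 1.27 and 1.72 in control libraries, with geometric means of 1.88 and 1.37. LIGHT replicate 3, the LIGHT library with the most Il1b, lay inside the control range. Il1r2 over the same sum was 0.195, 0.410 and 0.237 in LIGHT libraries, against 0.157, 0.170 and 0.347 in control libraries. Ratios to each agonist alone were chosen after the values were seen, and both overlapped. Il1rn over Il1b was 2.98, 3.43 and 1.60 in LIGHT libraries, against 1.60, 1.72 and 2.29 in control libraries. Il1rn over Il1a was 8.37, 6.85 and 7.66 in LIGHT libraries, against 4.70, 4.81 and 6.88 in control libraries, where control replicate 3 was just above the lowest LIGHT library. Ratios of TPM were not tested.

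**Figure D3:**
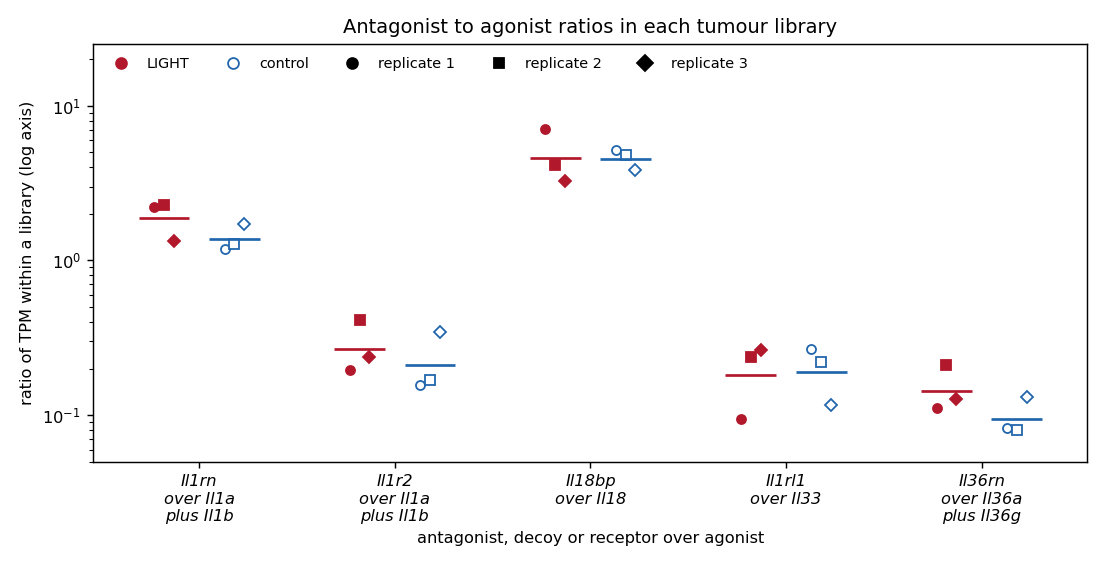
Ratio of antagonist, decoy or receptor TPM to agonist TPM (log axis) in each library, with LIGHT libraries left of control libraries; points are libraries and bars are geometric means (n = 3 per group). All 5 ratios overlap between groups, and the Il18bp to Il18 ratio has nearly the same geometric mean in LIGHT (4.55) and control (4.54) tumours.

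The receptors of IL-1 moved in different directions. Il1r1, the signalling receptor for both IL-1 forms, stood at 17.5, 14.3 and 18.3 TPM in LIGHT libraries, against 11.3, 9.32 and 11.8 TPM in control libraries, and rose (log2 fold change 0.59, SE 0.13, limma adjusted p = 0.017). Il1rap, the coreceptor shared by the IL-1, IL-33 and IL-36 receptors, stood at 8.66, 7.11 and 7.84 TPM in LIGHT libraries, against 11.8, 10.0 and 11.8 TPM in control libraries, and fell (log2 fold change -0.46, limma adjusted p = 0.0246). The groups were apart in both genes. Il1r1 lost its call when LIGHT replicate 3 (adjusted p = 0.067) or control replicate 2 (0.0532) was left out and with the muscle covariate (0.124). Il1rap lost it when LIGHT replicate 2 (0.0682), LIGHT replicate 3 (0.0816), control replicate 1 (0.0672) or control replicate 3 (0.0825) was left out, and with either marker covariate (0.216 for muscle, 0.101 for red blood cells). The inhibitory receptor gene Sigirr had a log2 fold change of 0.37 (95% interval 0.06 to 0.68, limma adjusted p = 0.0827), and Il1rapl1 was at or near 0 and not tested. Over the 6 receptors tested, 3 rose and 1 fell, against 17.7% and 5.41% of all genes tested. At an absolute log2 fold change of at least 1, these counts were 1 and 0.

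The IL-36 ligands are neighbours on chromosome 2 (Il36g at chr2:24186476-24193567 and Il36a at chr2:24215417-24225701). Il36a stood at 38.4, 53.4 and 50.5 TPM in LIGHT libraries, against 26.6, 24.5 and 51.5 TPM in control libraries. Control replicate 3 lay among the LIGHT libraries and the other control libraries below them, with a log2 fold change of 0.53 (95% interval -0.10 to 1.15, limma adjusted p = 0.199). Without control replicate 3 Il36a was called higher (log2 fold change 0.86, adjusted p = 0.0215). Il36g, abundant in inflamed keratinocytes, stood at 50.6, 44.4 and 65.5 TPM in LIGHT libraries, against 58.7, 54.5 and 68.7 TPM in control libraries. Those ranges overlapped, and the log2 fold change was -0.19 (95% interval -0.54 to 0.17, limma adjusted p = 0.411). The library that changed the reading of Il1a and that of Il36a was the same one, control replicate 3, which also had the highest summed differentiated squamous markers (60260.0 TPM, against 32740.0 to 44430.0 TPM in LIGHT libraries and 43620.0 and 44020.0 TPM in the other control libraries). Of that list of 14 markers 1 rose and 4 fell, against 17.7% and 5.41% of all genes tested. None was at 0 in all libraries, and the part of the list in these values was not tested.

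The rest of the IL-36 branch was also not called. The antagonist gene Il36rn, listed as Il1f5, stood at 9.86, 20.7 and 14.9 TPM in LIGHT libraries, against 7.0, 6.33 and 15.8 TPM in control libraries, and control replicate 3 was again within the LIGHT range (log2 fold change 0.64, 95% interval -0.18 to 1.46, limma adjusted p = 0.23). The third agonist gene Il36b, listed as Il1f8, had a log2 fold change of -0.38 (limma adjusted p = 0.125), and Il1f10, the gene of IL-38, one of -0.11 (0.83), or 0.25 without LIGHT replicate 1. Il36rn over Il36a plus Il36g was 0.111, 0.211 and 0.128 in LIGHT libraries, against 0.0821, 0.0801 and 0.131 in control libraries, so these groups overlapped too. The IL-36 receptor gene Il1rl2 stood at 8.98, 7.21 and 12.3 TPM in LIGHT libraries, against 5.20, 5.54 and 7.0 TPM in control libraries. All its LIGHT libraries were above its control libraries, but the test was missed (log2 fold change 0.58, 95% interval 0.15 to 1.02, limma adjusted p = 0.0607), and without LIGHT replicate 2 it was called higher (0.74, 0.0356).

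Il33 and Il1rl1, a ligand and its receptor, varied more among the LIGHT replicates than any other member. Il33, the nuclear alarmin of epithelial and endothelial cells (chr19:29925113-29960718), stood at 75.0, 10.5 and 77.8 TPM in LIGHT libraries, against 46.6, 25.5 and 24.2 TPM in control libraries. LIGHT replicates 1 and 3 were above every control library and LIGHT replicate 2 below every one. The LIGHT libraries spanned 7.38-fold, a range wider than in 99.6% of genes tested, and the control libraries 1.92-fold, wider than in 93.2%. The log2 fold change was 0.37 (SE 0.70, 95% interval -1.24 to 1.99, limma adjusted p = 0.736). Without LIGHT replicate 2, the library with the most muscle and red blood cell signal, Il33 was called higher (log2 fold change 1.29, adjusted p = 0.027), and without LIGHT replicate 1 or 3 the log2 fold change was -0.07 or -0.10.

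Il1rl1, which encodes both membrane ST2 and the soluble decoy form (chr1:40404864-40465418), stood at 7.08, 2.52 and 20.4 TPM in LIGHT libraries, against 12.4, 5.67 and 2.82 TPM in control libraries. The groups overlapped, with spans of 8.1-fold in LIGHT and 4.39-fold in control libraries, and the log2 fold change was 0.28 (95% interval -1.27 to 1.83, limma adjusted p = 0.797). Without LIGHT replicate 2 it was 0.91 (adjusted p = 0.32), without LIGHT replicate 3 it was -0.39 and without control replicate 3 it was -0.16, so its direction rested on single libraries. Gene-level TPM do not tell its products apart. LIGHT replicate 2 was the lowest LIGHT library for both genes, and control replicate 1 the highest control library for both. Summed endothelial markers were 77.7, 61.6 and 110.8 TPM in LIGHT libraries, against 71.8, 59.0 and 40.1 TPM in control libraries, with 2 of 8 higher, 0 lower and none at 0, and they shared these high and low libraries. Summed basal keratinocyte markers shared them too. Those sums were 25760.0, 18250.0 and 24320.0 TPM in LIGHT libraries, against 30320.0, 25910.0 and 26430.0 TPM in control libraries, with 0 of 12 markers higher and 1 lower. Summed mast cell markers, cells that carry ST2, were 14.8, 31.9 and 26.8 TPM in LIGHT libraries, against 14.9, 28.5 and 22.9 TPM in control libraries, and had other high and low libraries. Of the 9 mast cell markers, 8 were found and 6 tested, 1 rose and 0 fell, and Fcer1a and Ms4a2 were under 1 TPM in all libraries. Over all genes tested, 17.7% rose and 5.41% fell. The part of any of these cell types was not tested. Il1rl1 over Il33 was 0.0944, 0.239 and 0.262 in LIGHT libraries, against 0.266, 0.222 and 0.117 in control libraries.

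**Figure D4:**
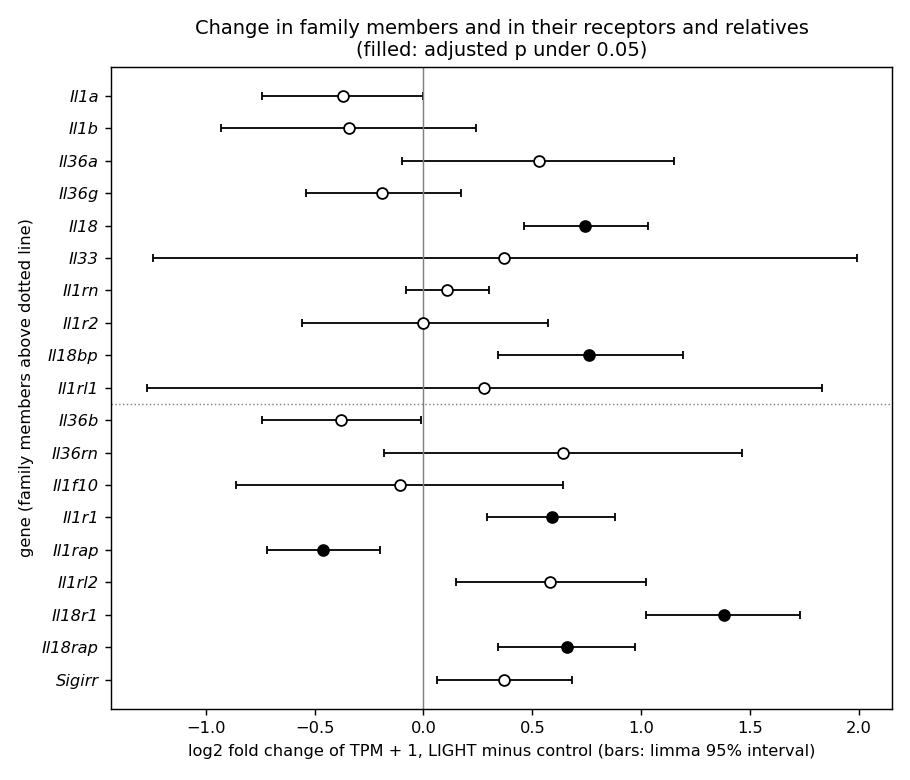
log2 fold change of LIGHT over control with its 95% interval (horizontal axis) for the 10 members and the other ligand and receptor genes of the family; filled points have an adjusted p under 0.05. The intervals of Il18 and Il18bp lie above 0, those of Il33 (-1.24 to 1.99) and Il1rl1 (-1.27 to 1.83) are the widest, and that of Il1rn is the narrowest.

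Downstream of the receptors, no shared adaptor or kinase gene was called, while some induced genes were. Of 13 adaptor and kinase genes, 0 rose and 0 fell by limma, against 17.7% and 5.41% of all genes tested. The counts at an unadjusted p under 0.05 were also 0, against 26.9% higher and 9.9% lower over all genes tested. The median log2 fold change was 0.01, against 0.09 over all genes tested. Myd88, the adaptor of all these receptors, stood at 75.6, 62.5 and 67.1 TPM in LIGHT libraries, against 60.0, 59.7 and 63.5 TPM in control libraries (log2 fold change 0.16, 95% interval -0.06 to 0.37, limma adjusted p = 0.255). Of 20 genes listed as induced by IL-1 and IL-36, 4 rose and 1 fell, with a median log2 fold change of 0.04, shares near the 17.7% and 5.41% over all genes. The number higher became 1 with the muscle covariate and 2 with the red blood cell covariate or quantile normalization. It was 7 with the replicate number as a block and 1 at an absolute log2 fold change of at least 1. The number lower changed in 11 of 18 alternatives and ran from 0 to 3. The adhesion gene Icam1 (log2 fold change 1.20, limma adjusted p = 0.00257), the RNase gene Zc3h12a (0.64, 0.00664) and the IL-23 subunit gene Il23a (0.81, 0.0148) rose, as did the iron-binding lipocalin gene Lcn2 (0.82, 0.0338), which was named after its values were seen. Zc3h12a lost its call with the muscle covariate (adjusted p = 0.101), and Il23a with quantile normalization (0.0571), the muscle covariate (0.225) and the red blood cell covariate (0.0554). Lcn2 lost it in 11 of 18 alternatives, among them the removal of any library but LIGHT replicate 1 (0.0543 to 0.102), TMM scaling (0.0728) and quantile normalization (0.0561). Cxcl3, a neutrophil-attracting chemokine gene, stood at 28.5, 35.9 and 51.5 TPM in LIGHT libraries, against 87.6, 77.8 and 54.8 TPM in control libraries, and fell (log2 fold change -0.92, limma adjusted p = 0.0292). Cxcl3 was no longer called when LIGHT replicate 1 (adjusted p = 0.063), LIGHT replicate 2 (0.0788), control replicate 1 (0.0737) or control replicate 2 (0.0855) was left out, with no filter on low values (0.0522), or with the muscle (0.135) or red blood cell covariate (0.0611). At an unadjusted p under 0.05, 6 genes of this list were higher and 4 lower. The largest changes of the list were downward and not called, and the groups overlapped in both genes. They were those of Ptgs2 (log2 fold change -1.42, limma adjusted p = 0.1) and Cxcl2 (-1.39, 0.062).

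A list of type 2 cytokine genes, which IL-33 is known to induce, with Gata3 and the amphiregulin gene Areg, gave 1 call each way. Of its 6 genes, 5 were found and 3 tested. Il4 (at most 0.69 TPM) and Il5 (at most 1.05 TPM) were not tested, so Il13 was the only cytokine gene of the list with a test. The call downward was that of Areg. Which cells its values came from was not tested, so its fall is not read as a type 2 or IL-33 response. Over all genes tested, 17.7% were called higher and 5.41% lower. Areg, the amphiregulin gene, stood at 22.7, 14.3 and 19.8 TPM in LIGHT libraries, against 95.3, 30.3 and 48.9 TPM in control libraries, and fell (log2 fold change -1.44, SE 0.37, limma adjusted p = 0.0299). All LIGHT libraries were below all control libraries, but Areg was no longer called when LIGHT replicate 2 (adjusted p = 0.0883), LIGHT replicate 3 (0.0697) or control replicate 3 (0.0751) was left out. The Areg call also ended with robust limma (0.0799), with no filter (0.055) and with the muscle (0.0807) or red blood cell covariate (0.147, log2 fold change -0.9). Il13 stood at 1.32, 2.41 and 2.44 TPM in LIGHT libraries, against 0.89, 0.61 and 0.61 TPM in control libraries (log2 fold change 0.82, limma adjusted p = 0.0172). It passed the filter on low values only through the LIGHT libraries, which fixed its direction, and it was no longer called when control replicate 2 (adjusted p = 0.0547) or control replicate 3 (0.0576) was left out, with quantile normalization (0.0692), or with the muscle (0.244) or red blood cell covariate (0.101). With any LIGHT library left out, Il13 no longer passed the filter and was not tested. Gata3, the type 2 regulator, had a log2 fold change of 0.08 (95% interval -0.19 to 0.35, limma adjusted p = 0.652), and one of -0.19 with quantile normalization.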

How the data were processed

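Whole-tumour RNA was ribosomal-RNA depleted and sequenced, per the labels' protocols. The authors deposited 1 table of TPM per gene for the 6 libraries, per the file headers. HISAT, Bowtie2 and GRCm38.p6 are named in the submitters' processing notes, and neither the quantifier nor the strand setting is stated there. TPM keep no depth, so no counting error could be given. From the deposited TPM, log2(TPM + 1) was tested with limma 3.58.1 in R 4.3.3 (linear model with a mean-variance trend, 2-sided, Benjamini-Hochberg over the 13167 genes that reached 1 TPM in 3 libraries or more, threshold 0.05), 3 LIGHT against 3 control libraries and no covariate. TMM factors (trimmed by 30% of log ratios and 5% of levels, unweighted) and quantile normalization, other pseudocounts and filters, a replicate block, marker covariates, a minimum fold and leaving out each library were the alternatives. The steps were also run on simulated data, which does not show how well the model suits these libraries. No 2 libraries were identical. Symbols were looked up in a GRCm38.p6 gene table, which held 18361 of 18437.

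The members, the gene lists and the marker lists were chosen with earlier results of these data known, so no list is independent support. Named genes are all members, all receptors and other ligands found, up to 4 genes of each further list by smallest p, and the 3 genes most like each called member. Genes named outside this rule, the promoter motifs and the ratios of Il1rn to Il1a or Il1b alone were chosen after the data were seen. Il1rapl2 and the genes antisense to Il1a, Il1b and Il1r2 were not analysed here. Figures were drawn with matplotlib 3.10.9.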

Additional observations from a re-analysis of the deposited data

How the results depend on the processing

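Il18 kept its call in 17 of 18 alternative settings and Il18bp in 14 of 18, and no named gene called with all 6 libraries and the deposited scaling changed sign. Signs of uncalled values did turn, for Il33, Il1rl1, Il1r2, Il1f10 and Gata3, and the Il18bp to Il18 log2 ratio difference ran from -0.31 to 0.25 and that of Il1rl1 to Il33 from -0.43 to 0.40. The balance of all-gene calls (2325 higher, 712 lower) turned to 1399 and 1811 with quantile normalization; the calls became 621 and 93 with the skeletal muscle covariate, 976 and 207 with the red blood cell covariate, and 376 and 82 at an absolute log2 fold change of at least 1, and 1733 were lower with TMM factors. Leaving out 1 library gave 1145 to 1888 higher and 314 to 773 lower, with fewer samples in the fit. Members called higher numbered 1 (agonists 1, others 0) with the muscle covariate and 0 (agonists 0, others 0) at the minimum fold, which neither Il18 nor Il18bp reaches; without 1 library they numbered 1 to 3 (agonists 1 to 2, others 0 to 1), and members called lower 0 to 1 (agonists 0 to 1). Calls among the pathway genes (25 higher, 3 lower) were 10 and 0 with the muscle covariate, 13 and 1 with the red blood cell covariate, 8 and 1 at the minimum fold, and 17 to 24 and 0 to 2 without 1 library; those lower numbered 1 with no filter, 6 with TMM factors and 5 with quantile normalization. The cause of these shifts was not tested. Any called gene with an absolute log2 fold change under 1 lost its call at the minimum fold, which most lists of lost calls above leave out. Counting only members under their current symbols gave 2 higher and 0 lower. With the replicate number as a block, 2325 genes were higher and 907 lower, 2 members were higher and 0 lower, 5 receptor genes were higher (Sigirr, adjusted p = 0.0284, and Il1rl2, 0.0244, were added), Il36b was lower (0.0399) and Cxcl3 lost its call (0.0659). Same-numbered libraries correlated at 0.37, 0.237 and 0.01 in their deviations from the group means, so the numbers were not taken as pairs, and LIGHT replicates 2 and 3 correlated best with a control library of another number. With 3 libraries a group and TPM alone, no depth limit can be given.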
